A study of Homo sapiens with 4 samples.

Results

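The genes described here are the D-type cyclins CCND1, CCND2 and CCND3, their catalytic partners CDK4 and CDK6, the CDK inhibitors CDKN1A, CDKN1B, CDKN2A and CDKN2C, and RB1, the main substrate of these kinases. They were chosen by name, as every probe set that the platform annotation assigns to 1 of these 10 symbols. Of the 10 genes, 9 had at least 1 probe set, 15 probe sets in all, among 19064 probe sets with a single gene symbol for 11963 genes. CDKN2C had no probe set that the annotation assigns to it alone and is not analysed here. Expression was profiled in SUP-B15 and BV-173, established human leukemia lines that carry the Philadelphia chromosome and express the BCR-ABL1 kinase. Each line was cultured for 16 h with 10 μmol/l STI571 (imatinib, which blocks that kinase) or without it. The groups, each with 1 array, were SUP-B15 treated, SUP-B15 untreated, BV-173 treated and BV-173 untreated; all 4 thus carry BCR-ABL1, and each line stands for a single patient's leukemia.

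Entry into the cell cycle is controlled by these proteins. Mitogenic signals raise a D-type cyclin, which binds CDK4 or CDK6, and the active kinase phosphorylates the retinoblastoma protein RB1, releasing E2F transcription factors that switch on genes for DNA synthesis. Inhibitors of the INK4 family, such as the products of CDKN2A and CDKN2C, bind CDK4 and CDK6 alone, whereas p21 (CDKN1A) and p27 (CDKN1B) bind cyclin-kinase complexes, mainly those of CDK2. In B cell precursors cyclin D2 and cyclin D3 are the D-type cyclins in use, and BCR-ABL1 signalling is known to raise cyclin D2 and to lower p27.

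The arrays gave a signal intensity for 22277 probe sets, with medians of 107 (treated SUP-B15), 115 (untreated SUP-B15), 108 (treated BV-173) and 95.5 (untreated BV-173). All 8 B cell precursor markers with a probe set reached the array median in each of the 4 arrays. Their summed signal ran from 23367 to 91457, against 170 to 489.5 for marker lists of T cells, myeloid cells, erythroid cells and fibroblasts. Those lists had 4 to 7 genes with a probe set, and each had 0 or 1 gene at the median in any array. In both SUP-B15 arrays the T cell gene LCK and the myeloid gene MPO reached it. The control probe sets for 18S ribosomal RNA had a mean signal of 2817 in treated BV-173, against 1513 to 1596 in the other arrays; its part in the BV-173 values below was not tested, and the SUP-B15 values do not use that array. Every change is a difference on the scale log2(signal + 24.5), on which changes of dim probe sets come out too small. A probe set was tested if it reached its array's median in at least 1 array. That left 11 member probe sets of 8 genes among 11818 tested. A call means an adjusted p under 0.05 from a limma fit to all 4 arrays with line and treatment as terms. The fit has 1 residual degree of freedom, and its errors are those expected at a probe set's brightness, not the probe set's own spread.

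After STI571 the brightest probe set of cyclin D2, 200953_s_at, was lower in both lines, and no other member was called. CCND2 fell on it 2.33-fold in SUP-B15 and 2.55-fold in BV-173. A dimmer CCND2 probe set, 200951_s_at, was higher by 0.26 on the log2 scale in treated SUP-B15, and the call was lost with the mean of the probe sets (adjusted p = 0.467), without the intensity trend (0.562) and when cell line was no block (1.0). CCND3 and CCND2 differed between the lines in opposite directions, on average over treated and untreated arrays. SUP-B15 had 4.22-fold more CCND3 signal and, on 200953_s_at, 6.43-fold less CCND2 signal than BV-173. On the other CCND2 probe sets SUP-B15 was lower by 1.63-fold and 3.40-fold, without a call. Both of these were tested only through untreated BV-173, where they are brightest. CDKN1A was also higher in SUP-B15, by 1.75-fold. CDKN1B had upward values in both lines without a call, near-equal on the deposited scale (log2 0.45 in SUP-B15 and 0.42 in BV-173) but 0.54 and 0.28 on a common median. Each array averages a whole culture, so a change in the share of cells at 1 stage of the cycle and a change of RNA per cell cannot be told apart.

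**Figure D1:**
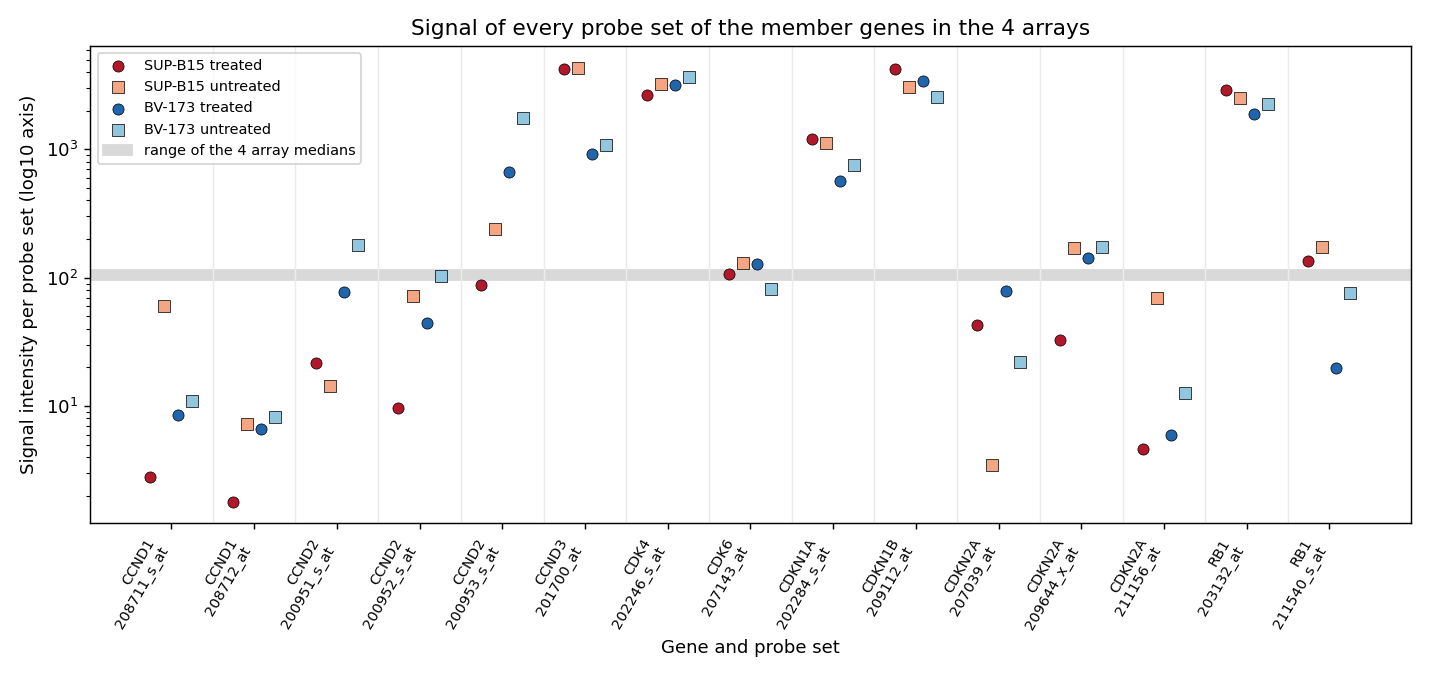
Signal of each of the 15 member probe sets (log10 axis) in the 4 arrays, with circles for treated and squares for untreated cultures; the grey band spans the 4 array medians. CCND2 200953_s_at is lowest in treated SUP-B15 (88.4) and highest in untreated BV-173 (1747), CCND3 lies at 4239.6 and 4335 in SUP-B15 and at 913 and 1088 in BV-173, and both CCND1 probe sets stay under the band; heights of different probe sets cannot be set against each other.

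For STI571, 1 of the 11 tested member probe sets was called lower and 0 higher, where 1.56% of all tested probe sets were called lower and 1.39% higher. At an unadjusted p under 0.05 there were 2, CCND2 200953_s_at and CDKN1B. The median of the members' mean log2 changes was −0.25, against 0.02 over all tested probe sets. Both lines gave a negative value for 6 member probe sets, both a positive value for 1, and the signs were opposite for 4; on a common median these counts were 5, 1 and 5. Over all tested probe sets these shares were 26.2%, 29.3% and 44.3%.

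Within single lines, where 1 array a group allows no test, 3 member probe sets were at least 2-fold lower in SUP-B15 and 0 at least 2-fold higher. The same counts, 3 and 0, held for BV-173. With no filter 1 member probe set was at least 2-fold higher in each line. That was CDKN2A 207039_at, under the median in all arrays (2.41-fold in SUP-B15 and 2.20-fold in BV-173). Of all tested probe sets, 5.34% were at least 2-fold lower and 4.39% at least 2-fold higher in SUP-B15, and 5.1% and 6.85% in BV-173. The probe set 200953_s_at of CCND2 passed in both lines. The others were CCND2 200952_s_at and CDKN2A 209644_x_at in SUP-B15 and CCND2 200951_s_at and RB1 211540_s_at in BV-173, each with signals of at most 180.2. CCND2 200951_s_at was tested only through untreated BV-173, so the filter favours its fall in that line.

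Between the lines, 2 member probe sets were called higher in SUP-B15, where 13.8% of all tested probe sets were, and 1 was called lower, where 12.8% were. At an unadjusted p under 0.05 there were 5. The median of the members' log2 differences was 0.17, and that of all tested probe sets −0.01.

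Cyclin D2, the D-type cyclin known as a target of mitogen and cytokine signals in B cells, was measured by 3 probe sets. The brightest, 200953_s_at, gave 88.4 in treated and 239 in untreated SUP-B15, and 669 in treated and 1747 in untreated BV-173. The treated array was the lower of the pair in each line, and both SUP-B15 arrays lay under both BV-173 arrays. The mean log2 change after STI571 was −1.29 (SE 0.28, adjusted p = 0.000485), made up of −1.22 in SUP-B15 and −1.35 in BV-173. The log2 difference between SUP-B15 and BV-173 was −2.68 (SE 0.28, adjusted p = 4.33e-20), with −2.62 between the treated and −2.75 between the untreated arrays. The gap between the lines was thus present with and without the inhibitor.

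The other probe sets of CCND2 were much dimmer and did not show the same pattern throughout. On 200952_s_at the signal was 9.7 in treated and 72.6 in untreated SUP-B15, and 44.5 in treated and 103 in untreated BV-173. That probe set had the treated array lower in both lines, with log2 changes of −1.51 and −0.88, but no call (adjusted p = 0.715). On 200951_s_at SUP-B15 gave 21.7 treated and 14.2 untreated, and BV-173 gave 76.7 treated and 180.2 untreated. Here SUP-B15 went the other way, with log2 changes of 0.26 in SUP-B15 and −1.02 in BV-173 (adjusted p = 0.942), at SUP-B15 signals below the added 24.5. SUP-B15 was below BV-173 on both, by −0.70 on 200952_s_at and −1.77 on 200951_s_at, neither of them called (adjusted p = 0.621 and 0.113). Only untreated BV-173 reached its array median on either probe set. The filter itself thus favours a lower SUP-B15 value and a fall in BV-173 on them. All 3 names end in the suffix for probes that several transcripts share.

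Cyclin D3, the D-type cyclin that pre-B cells are known to need for their expansion, differed between the lines in the other direction and was not called for STI571. Its single probe set, 201700_at, gave 4239.6 in treated and 4335 in untreated SUP-B15, against 913 in treated and 1088 in untreated BV-173. The 2 SUP-B15 arrays were far above the 2 BV-173 arrays. The log2 difference between SUP-B15 and BV-173 was 2.08 (SE 0.21, adjusted p = 1.39e-21), 2.19 between the treated and 1.97 between the untreated arrays. For STI571 the mean log2 change was −0.14 (95% interval −0.55 to 0.27, adjusted p = 0.896), with −0.03 in SUP-B15, which became 0.06 on a common median, and −0.25 in BV-173.

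Cyclin D1, which is not the usual D-type cyclin of B cells, stayed under the array median on both its probe sets and was not tested. On 208711_s_at it gave 2.8 in treated and 59.8 in untreated SUP-B15, and 8.5 in treated and 11 in untreated BV-173. On 208712_at all 4 values were between 1.8 and 8.2. Both probe sets were lowest in treated SUP-B15, at signals where order cannot be read.

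CDK4, the kinase partner of the D-type cyclins that is found in most dividing cells, differed little in any direction. Its probe set 202246_s_at gave 2633 in treated and 3246 in untreated SUP-B15, and 3171 in treated and 3654 in untreated BV-173. The treated array was the lower in each line, by log2 changes of −0.30 and −0.20 (mean −0.25, 95% interval −0.65 to 0.15, adjusted p = 0.746). The difference between SUP-B15 and BV-173 was −0.22 (95% interval −0.62 to 0.18, adjusted p = 0.474). CDK6, the partner that blood cells use beside CDK4, gave 107 in treated and 131 in untreated SUP-B15, and 128.5 in treated and 81.3 in untreated BV-173 on 207143_at. These signals lay close to the array medians, the groups overlapped, and the lines had opposite signs, −0.24 in SUP-B15 and 0.53 in BV-173 (mean 0.14, 95% interval −0.90 to 1.19, adjusted p = 0.963). For the line difference in CDK6 the value was 0.17 (adjusted p = 0.855).

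**Figure D2:**
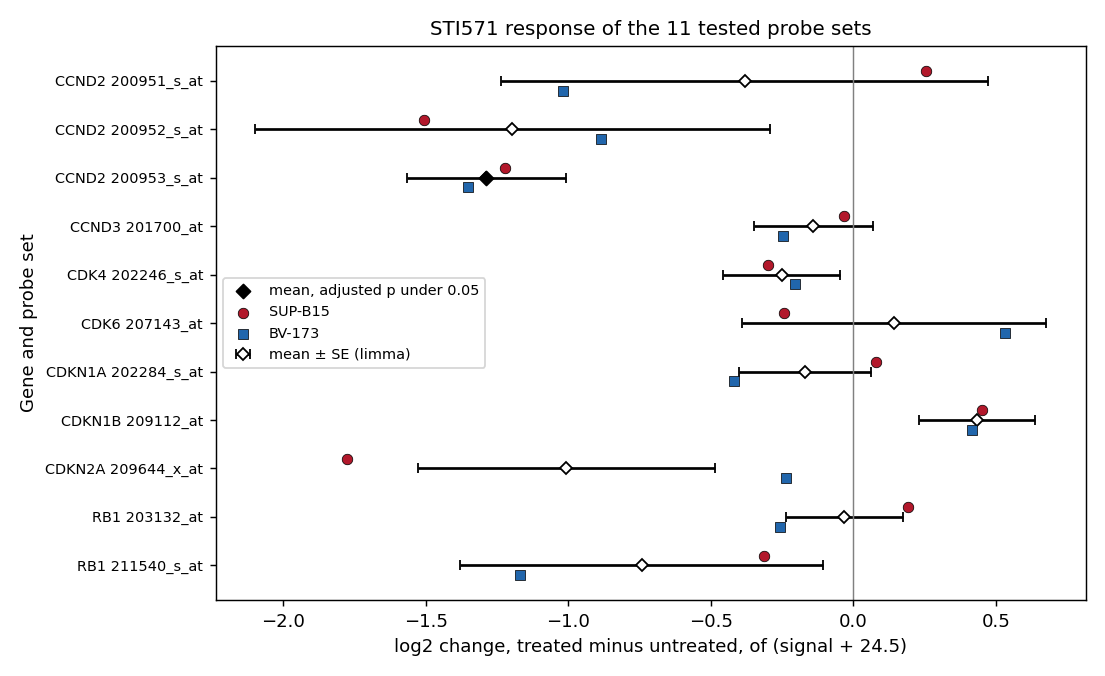
Log2 change after STI571 (treated minus untreated) of the 11 tested member probe sets, with circles for SUP-B15, squares for BV-173 and diamonds for the mean ± SE of the limma fit; the filled diamond has an adjusted p under 0.05. CCND2 200953_s_at lies at −1.29 with both lines close together, CDKN1B at 0.44 with both lines close together, and the dim probe sets have the widest errors.

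p27, encoded by CDKN1B, holds back CDK2 and is lost from cells that BCR-ABL1 drives into cycle, mostly through degradation of the protein. On 209112_at CDKN1B gave 4198 in treated and 3059 in untreated SUP-B15, and 3395 in treated and 2537 in untreated BV-173. Both treated arrays were above both untreated arrays. The log2 changes were 0.45 in SUP-B15 and 0.42 in BV-173, a mean of 0.44 (95% interval 0.04 to 0.83) or 1.35-fold. With an unadjusted p of 0.0328 and an adjusted p of 0.342 it was not called. Its line difference was 0.29 (adjusted p = 0.322).

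p21, encoded by CDKN1A and known as the CDK inhibitor that p53 induces, differed between the lines. Its probe set 202284_s_at gave 1198 in treated and 1131 in untreated SUP-B15, against 563 in treated and 760.1 in untreated BV-173. Both SUP-B15 arrays were above both BV-173 arrays. The log2 difference was 0.81 (SE 0.23, adjusted p = 0.00305), 1.06 between the treated and 0.56 between the untreated arrays. That call ended without the intensity trend (adjusted p = 0.151) and with the treatment left out of the fit (0.0531). For STI571 the lines had opposite signs, 0.08 in SUP-B15 and −0.42 in BV-173 (mean −0.17, 95% interval −0.62 to 0.29, adjusted p = 0.888).

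**Figure D3:**
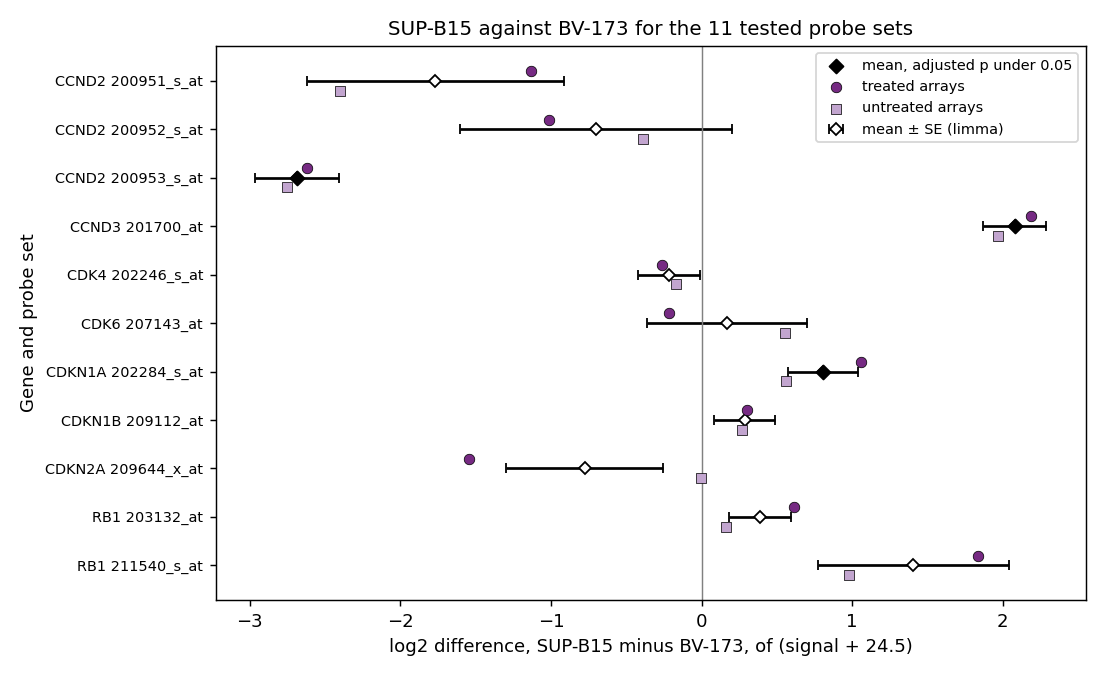
Log2 difference between the lines (SUP-B15 minus BV-173) of the 11 tested member probe sets, with circles for the treated arrays, squares for the untreated arrays and diamonds for the mean ± SE of the limma fit; filled diamonds have an adjusted p under 0.05. CCND2 200953_s_at (−2.68), CCND3 (2.08) and CDKN1A (0.81) are filled, and for each the treated and untreated arrays lie on the same side of 0.

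CCND3 and CDKN1A lie on the same chromosome, and whether they are regulated together was not tested. Their promoter windows are shown because these were the members called higher in SUP-B15. Each runs 5′ to 3′ on the gene's strand from 250 bases before to 50 after an annotated start in RefSeq's GRCh38.p14 tables. CCND3 has 3 such starts, and the array does not tell which of them gave its signal. Capitals mark 5 short motifs searched on both strands: the E-box CACGTG bound by MYC, the forkhead site GTAAACA bound by FOXO factors, the STAT-type site TTCNNNGAA, the GC box GGGCGG bound by SP1, and the CCAAT box CCAAT bound by NF-Y.
CCND3 start a, chr6:42048639-42048938, minus strand: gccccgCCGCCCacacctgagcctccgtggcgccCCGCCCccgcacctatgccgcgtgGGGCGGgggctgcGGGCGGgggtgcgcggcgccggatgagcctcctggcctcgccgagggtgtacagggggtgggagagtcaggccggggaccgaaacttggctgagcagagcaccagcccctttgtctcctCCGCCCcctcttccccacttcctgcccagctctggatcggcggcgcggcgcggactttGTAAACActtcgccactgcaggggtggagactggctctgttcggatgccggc
CCND3 start b, chr6:41941759-41942058, minus strand: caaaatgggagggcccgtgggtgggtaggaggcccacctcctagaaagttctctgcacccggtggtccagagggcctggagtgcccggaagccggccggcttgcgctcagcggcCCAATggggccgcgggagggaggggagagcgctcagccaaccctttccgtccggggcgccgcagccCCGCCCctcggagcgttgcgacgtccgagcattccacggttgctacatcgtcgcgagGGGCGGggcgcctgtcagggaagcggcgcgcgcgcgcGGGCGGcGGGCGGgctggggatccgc
CCND3 start c, chr6:41939156-41939455, minus strand: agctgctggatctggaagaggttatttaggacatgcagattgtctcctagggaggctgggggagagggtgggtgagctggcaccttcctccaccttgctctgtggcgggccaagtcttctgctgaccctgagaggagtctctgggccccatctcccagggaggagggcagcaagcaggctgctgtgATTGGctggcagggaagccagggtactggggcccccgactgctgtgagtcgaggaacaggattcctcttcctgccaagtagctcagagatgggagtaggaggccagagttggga
CDKN1A, chr6:36678464-36678763, plus strand: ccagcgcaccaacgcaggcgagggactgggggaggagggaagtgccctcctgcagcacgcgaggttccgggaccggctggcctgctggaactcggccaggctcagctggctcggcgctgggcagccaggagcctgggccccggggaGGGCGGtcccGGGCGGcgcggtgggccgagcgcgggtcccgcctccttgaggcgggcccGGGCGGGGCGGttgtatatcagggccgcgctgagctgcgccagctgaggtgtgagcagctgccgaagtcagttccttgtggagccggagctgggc

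Start a of CCND3 held 5 GC boxes and 1 forkhead match, start b held 4 GC boxes and 1 CCAAT box, and start c held 1 CCAAT box alone. The CDKN1A window held 4 GC boxes, of which 2 share a base. Among all 35116 windows of that table, 45.0% hold a GC box, 34.6% a CCAAT box, 7.66% the STAT-type site, 7.26% an E-box and 3.42% the forkhead site. The table had windows for 8 of the 10 members, 14 in all, and none for CCND1 or for CCND2, the member called for STI571. Its CDK4 window held 3 E-boxes and 3 GC boxes, and that of CDKN1B 3 CCAAT boxes and 1 GC box. These matches describe letters in a window, not binding.

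CDKN2A, which encodes the INK4 inhibitor p16 and, in another reading frame, the p53 activator ARF, was dim on all 3 of its probe sets. Only 209644_x_at was tested, and it gave 32.8 in treated and 172 in untreated SUP-B15, and 143 in treated and 172.5 in untreated BV-173. The low array was treated SUP-B15, with log2 changes of −1.78 in SUP-B15 and −0.24 in BV-173 (mean −1.01, SE 0.52, adjusted p = 0.436). The other probe sets stayed under the array median in all arrays and did not agree in direction: 207039_at gave 43.1 in treated and 3.5 in untreated SUP-B15, and 78.2 in treated and 22.1 in untreated BV-173. On 211156_at the values were 4.6 in treated and 69.2 in untreated SUP-B15, and 5.9 in treated and 12.7 in untreated BV-173. With no filter none of the 3 was called for STI571 (adjusted p = 0.518 to 0.638), so no direction could be given for CDKN2A.

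Genes beside CDKN2A on its chromosome arm were also read, since this stretch is often lost in leukemia. CDKN2B, the INK4 inhibitor next to it, was under the median in all arrays, at 14.9 in treated and 10.2 in untreated SUP-B15 and 13.5 in treated and 13.8 in untreated BV-173. Of 10 listed neighbours 9 had a probe set and 5 were tested, of which 0 were called for STI571. KLHL9, an adaptor of a ubiquitin ligase, was the 1 called between the lines, higher in SUP-B15 with a log2 difference of 0.83 (adjusted p = 0.00446). That call was lost without the intensity trend (0.131) and with the treatment left out of the fit (0.0571), and its other probe set was not called (0.74, adjusted p = 0.0540). MTAP, the enzyme of methionine salvage whose gene is often lost together with CDKN2A, gave 178.5 in treated and 92.7 in untreated SUP-B15, and 103 in treated and 110.1 in untreated BV-173 on its brightest probe set. Those signals are near the array medians, and its line difference was not called (0.24, adjusted p = 0.783). Its probe sets disagreed: 216685_s_at, with 78 in treated and 11.8 in untreated SUP-B15 and 173 in treated and 263.5 in untreated BV-173, was called lower in SUP-B15 (−1.97, adjusted p = 0.00439). MLLT3, a reader of acetylated histones, had a line difference of −0.92 (adjusted p = 0.329) and FOCAD −0.54 (adjusted p = 0.259). DNA copy number was not measured.

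RB1, the pocket protein that D-type cyclin kinases inactivate, was bright on 203132_at, with 2890.5 in treated and 2523 in untreated SUP-B15 and 1883.5 in treated and 2253 in untreated BV-173. On the deposited scale SUP-B15 was the higher line, by a log2 difference of 0.61 between the treated and 0.16 between the untreated arrays. The mean difference was 0.39 (95% interval −0.02 to 0.79, adjusted p = 0.159), or 0.28 on a common median. The untreated arrays' log2 medians lay at 0.10 (SUP-B15) and −0.12 (BV-173) from the mean of all arrays. The untreated order of RB1 thus rests on the scaling. After STI571 the log2 change was 0.19 in SUP-B15 and −0.26 in BV-173, a mean of −0.03 (95% interval −0.43 to 0.37, adjusted p = 0.984). The second probe set, 211540_s_at, was dim, with 134 in treated and 172 in untreated SUP-B15 and 19.9 in treated and 75.4 in untreated BV-173. This probe set, which reached the median only in the SUP-B15 arrays, put SUP-B15 higher by 1.41 (SE 0.64, adjusted p = 0.0866). With the mean of both probe sets RB1 was called higher in SUP-B15 (0.90, adjusted p = 0.00991). On 211540_s_at the log2 changes after STI571 were −0.31 in SUP-B15 and −1.17 in BV-173 (adjusted p = 0.770).

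RB1 contains another gene, LPAR6, a receptor for lysophosphatidic acid whose annotated span lies inside that of RB1. LPAR6 fell strongly while RB1 was not called. On 218589_at it gave 919 in treated and 2874 in untreated SUP-B15, and 2193 in treated and 11157 in untreated BV-173. The mean log2 change was −1.98 (SE 0.20, adjusted p = 1.19e-18), −1.62 in SUP-B15 and −2.33 in BV-173, and SUP-B15 was lower than BV-173 by a log2 difference of −1.59 (adjusted p = 2.92e-13). The STI571 call was lost without the intensity trend (0.552) and when cell line was no block (1.0), and the line call with the treatment left out (0.104). It was the 1 of 6 tested RB1 neighbours called for STI571 and the 1 called between the lines. The neighbours FNDC3A, SUCLA2 and RCBTB2 had line differences of 0.48, −0.37 and −0.29 (adjusted p = 0.137 to 0.362).

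The other genes of the G1/S pathway were read with 1 probe set per gene, the brightest. On that basis 1.64% of 7916 genes were called lower after STI571 and 1.41% higher, and 14.4% were called higher and 14.3% lower in SUP-B15 than in BV-173. No STI571 call in these lists held without the intensity trend or when cell line was no block, since 0 probe sets in all were then called.

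RB's partners, the E2F factors and their DP partners had 1 of 10 tested genes called higher and 1 lower, with a median mean log2 change of −0.08 against 0.02 over all genes. Both were DP proteins, with which E2F factors pair to bind DNA. TFDP1 fell, with 1036 in treated and 1767 in untreated SUP-B15 and 2237 in treated and 3704 in untreated BV-173 (mean log2 change −0.74, SE 0.21, adjusted p = 0.0197). TFDP2 rose, with 668 in treated and 223 in untreated SUP-B15 and 230.1 in treated and 127 in untreated BV-173 (mean 1.12, SE 0.33, adjusted p = 0.0300). Their line differences ran in opposite directions as well, −1.08 for TFDP1 (adjusted p = 3.62e-06) and 1.08 for TFDP2 (adjusted p = 0.00631), though without the intensity trend neither was called (0.0783 and 0.106). These STI571 calls were not firm: TFDP1 had an adjusted p of 0.0712 on a common median and TFDP2 one of 0.131 with no filter. A second probe set gave TFDP1 a mean change of 0.05 and TFDP2 one of 0.53, neither called.

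E2F1, the activator E2F released from RB1, gave 248 in treated and 269 in untreated SUP-B15, and 47.9 in treated and 235.5 in untreated BV-173. Treated BV-173 was the low array. The mean log2 change of −0.98 was not called (adjusted p = 0.238). E2F3, a further activator, had −0.49 in SUP-B15 and −0.51 in BV-173 (adjusted p = 0.337). In the line comparison E2F1 was called higher in SUP-B15 (1.04, adjusted p = 0.0407), a difference of 1.91 between the treated and 0.17 between the untreated arrays. That call ended on a common median (adjusted p = 0.0614), without the intensity trend (0.230) and with the treatment left out (0.199). The call also ended with no filter (0.147), with the mean of the probe sets (0.217) and with a pseudocount at the median signal (0.0597). On the other E2F1 probe set, 2028_s_at, the line difference was not called (0.42, adjusted p = 0.553).

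Known E2F target genes were lower in both lines for 16 of 17 tested, where 26.2% of all tested probe sets, not 1 per gene, were. Of these 17, 3 were called lower and 0 higher, and their median mean log2 change was −0.56 against 0.02 over all genes, −0.39 in SUP-B15 and −0.66 in BV-173. CDC45, which activates the replicative helicase, fell, with 128 in treated and 365 in untreated SUP-B15 and 146 in treated and 662.5 in untreated BV-173 (mean log2 change −1.68, adjusted p = 5.7e-05). The helicase subunit MCM4 fell with a mean of −1.02 (adjusted p = 0.000193) and MCM2, of the same ring, with −0.67 (adjusted p = 0.0421). MCM2 lost its call on a common median (adjusted p = 0.109) and MCM4 with the mean over its probe sets (0.0562). MCM10, an initiation factor, had −0.72 without a call (adjusted p = 0.340). Between the lines 6 of the 17 were called lower in SUP-B15 and 0 higher, MCM4 with the widest gap at −2.38.

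**Figure D4:**
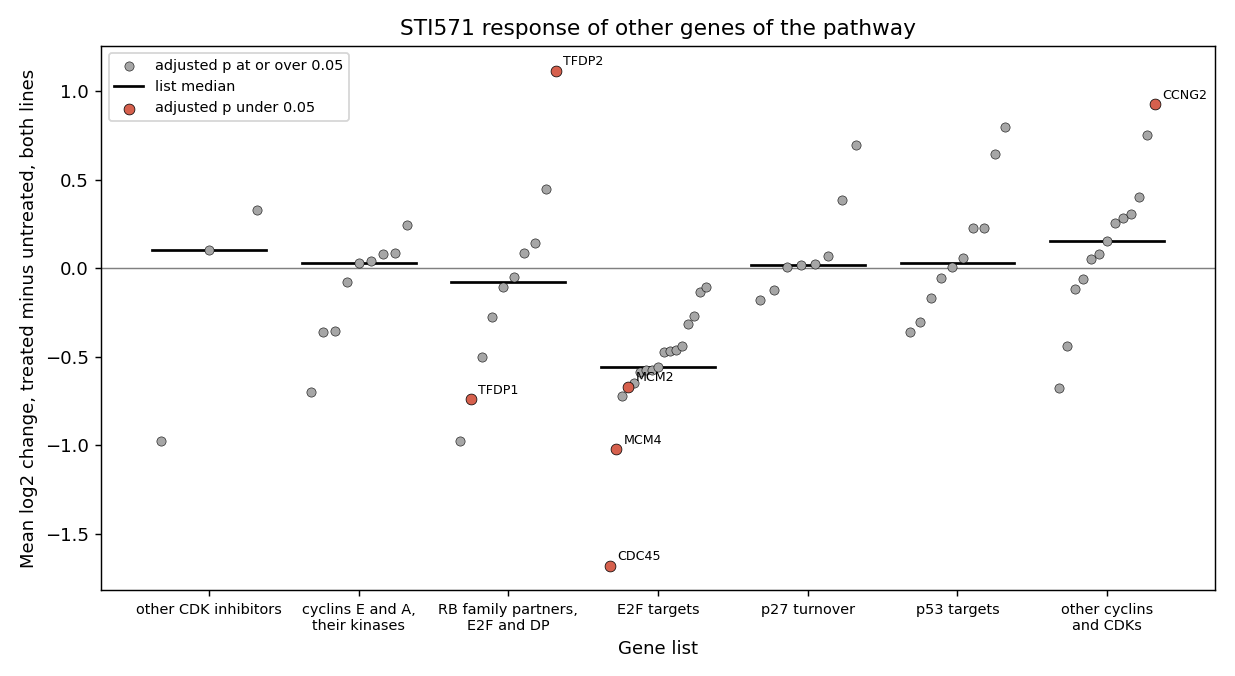
Mean log2 change after STI571 over both lines for the tested genes of 7 lists, 1 point per gene, with red points for an adjusted p under 0.05 and a bar at each list's median. The E2F targets lie below 0 with a median of −0.56, TFDP1 (−0.74) and TFDP2 (1.12) are called on opposite sides of 0, CCNG2 (0.93) is the 1 call among other cyclins and CDKs, and the remaining lists have medians between −0.08 and 0.15.

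Cyclins E and A with their kinases, which act after the D-type cyclins, had 0 of 9 tested genes called for STI571 and 2 called lower in SUP-B15. Cyclin E2, CCNE2, had the largest value, 516 in treated and 657 in untreated SUP-B15 and 326 in treated and 708 in untreated BV-173 (mean log2 change −0.70, adjusted p = 0.142). CDC25A, the phosphatase that activates CDK2, had opposite signs, 0.64 in SUP-B15 and −1.36 in BV-173 (adjusted p = 0.832), and its second probe set, 204696_s_at, had both signs the other way, −0.55 and 0.38 (adjusted p = 0.982). CCNE1 had −0.08 and −0.64 (adjusted p = 0.816), and the mitotic kinase CDK1 had 0.63 and −0.15 (adjusted p = 0.762). The signs within this list were opposite in the 2 lines for 7 of the 9 genes (6 on a common median). Over all tested probe sets, not 1 per gene, that share was 44.3%.

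Further CDK inhibitors gave 0 calls for STI571 among 3 tested. CDKN2D, the INK4 inhibitor p19, gave 270.2 in treated and 240.5 in untreated SUP-B15, against 104 in treated and 65.5 in untreated BV-173. It was called higher in SUP-B15 (log2 difference 1.38, SE 0.44, adjusted p = 0.0095), a call that ended with no filter (0.0542) and without the intensity trend (0.0522). CDKN1C, the third CIP/KIP inhibitor, had 179 in untreated SUP-B15 and 15.1 to 22 in the other arrays on its brightest probe set, with no call (mean log2 change −0.98, adjusted p = 0.831). Its other probe set, 213348_at, had the opposite sign, with 29.2 in treated and 33.6 in untreated SUP-B15 and 114 in treated and 4.5 in untreated BV-173 (1.07, adjusted p = 0.825). CDKN3, a phosphatase that acts on CDKs, had a mean change of 0.10 (adjusted p = 0.947).

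The genes listed for the turnover of p27 had 0 of 8 tested called for STI571 and 0 between the lines. SKP2, the subunit that recognises p27, was among them with 1286 in treated and 1289 in untreated SUP-B15 and 1289.6 in treated and 1277.5 in untreated BV-173; it is named for its role, after its values were seen. The largest mean changes were 0.69 for the ligase gene RNF123 (adjusted p = 0.337) and 0.39 for USP19 (adjusted p = 0.868), followed by CKS1B, the partner of SKP2, at −0.18 (adjusted p = 0.849) and RBX1, a RING subunit of the ligase, at −0.13 (adjusted p = 0.906).

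Targets of p53 other than CDKN1A had 0 of 10 tested genes called for STI571, with a median mean log2 change of 0.03. MDM2, the ligase that degrades p53, came nearest, with 1182 in treated and 910.2 in untreated SUP-B15 and 465 in treated and 184 in untreated BV-173 (mean log2 change 0.80, SE 0.26, adjusted p = 0.0577). Both treated arrays were above their untreated partners. MDM2 was called higher in SUP-B15, as CDKN1A was (log2 difference 1.73, adjusted p = 3.41e-10), but the death receptor gene FAS (−2.11, adjusted p = 0.00293) and ZMAT3 (−1.32, adjusted p = 3.93e-05) were called lower there. Without the intensity trend neither FAS (0.0686) nor ZMAT3 (0.0661) was called. FAS gave 70.1 in treated and 8.4 in untreated SUP-B15, and 197.7 in treated and 235.8 in untreated BV-173. It stayed under the array median in SUP-B15 and was tested only through BV-173, where it is high. With the mean of its 5 probe sets MDM2 was not called (0.55, adjusted p = 0.327). In all, 2 of the 10 were called higher and 4 lower in SUP-B15. The STI571 values of FAS and SESN1 were 0.65 and −0.36 (adjusted p = 0.802 and 0.749).

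Other cyclins and CDKs, read for comparison, had 1 of 13 tested genes called for STI571. CCNG2, an unconventional cyclin linked to cell cycle arrest and a known FOXO target, rose, with 2522 in treated and 1076 in untreated SUP-B15 and 721 in treated and 453 in untreated BV-173 (mean log2 change 0.93, SE 0.23, adjusted p = 0.00357). Its 2 further probe sets gave 1.04 (adjusted p = 0.00796) and 0.73 (adjusted p = 0.209), and the mean of all 3 had an adjusted p of 0.0567. Between the lines 5 of the 13 were called higher and 2 lower in SUP-B15. CDK14, which pairs with cyclin Y, had the largest difference, 809 in treated and 1334 in untreated SUP-B15 against 93.3 in treated and 160.0 in untreated BV-173 (log2 difference 2.85, adjusted p = 3.93e-21). CDK9, the transcription elongation kinase, differed by 1.81 (adjusted p = 6.24e-07) and CDK8, of the Mediator kinase module, by −0.88 (adjusted p = 0.00126). Without the intensity trend CDK9 (0.0736), CDK8 (0.113) and the line difference of CCNG2 (0.0508) were not called.

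Among 3729 genes whose log2 values spanned at least 1 over the arrays, the profiles nearest to that of CCND2 200953_s_at were those of CD69, MCM4 and TEAD4. Nearness was the Euclidean distance between log2 values centred on each gene's mean over the 4 arrays, 0.24, 0.40 and 0.51. CD69, an early activation antigen of lymphocytes, gave 111 in treated and 246 in untreated SUP-B15, and 855 in treated and 2161 in untreated BV-173. As with CCND2, treated arrays were lower in each line and SUP-B15 was the lower line. Over 4 arrays this likeness is a description.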

How the data were processed

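Total RNA of 4 cultures, 1 per group, was labelled with biotin by the array maker's standard method, per the labels' protocols. The submitters' processing notes name GCOS 1.3. Each deposited column holds linear signal intensity, 1 value for each probe set; the probe summary method is not given in the sources used here. In every deposited column the 2%-trimmed mean was 499.8, so the authors' values were scaled array by array.

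Only the 19064 probe sets with 1 symbol in the platform annotation were used (1043 had several, 2108 none, and 62 were controls). The pseudocount of 24.5 is the 25th percentile of all signals. The fit used limma 3.58.1 in R 4.3.3 (lmFit, eBayes with an intensity trend), with cell line, which pairs the arrays by the labels, and treatment as terms. Tests were two-sided with Benjamini-Hochberg adjustment over 11818 probe sets, and the prior degrees of freedom were infinite. The fit was tested on simulated data drawn with the fit's own errors, so that test could not check whether those errors are right. Intervals are normal intervals from the fit's errors. The members and gene lists were chosen with earlier results of these data known. All member probe sets were named; from each list, the 4 tested genes with the largest mean STI571 change were named, or the largest line difference for chromosome neighbours and other cyclins and CDKs. Also named were the 3 nearest profiles to each member called for STI571. The alternatives were another scaling, pseudocount, filter, probe set rule, block, trend, prior or fold threshold.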

Additional observations from a re-analysis of the deposited data

Results flagged for a closer look

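For 4 member probe sets the lines had opposite signs after STI571; with 1 array per group the difference between the responses was not tested. The values are the SUP-B15 change minus the BV-173 change on the log2 scale. They were 1.27 for CCND2 200951_s_at (0.26 in SUP-B15 and −1.02 in BV-173), −0.78 for CDK6 207143_at (−0.24 and 0.53), 0.50 for CDKN1A 202284_s_at (0.08 and −0.42) and 0.45 for RB1 203132_at (0.19 and −0.26). The BV-173 values rest on the treated array with the high 18S ribosomal RNA signal, whose part was not tested.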

How the results depend on the processing

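Of 1016 repeats of single named values under 12 alternatives, 955 kept their side of the threshold, 55 lost a call, 6 gained one and 0 called values reversed. Most of the named values had no call to lose. Another filter, block, trend or prior, the brightest probe set and gene-specific probe sets leave each value itself unchanged. No sign could reverse under those, so the tally does not measure how firm the calls are. The difference between the lines was called in all 12 alternatives for CCND3 (log2 1.98 to 2.10) and in all 11 that could measure it for CCND2 200953_s_at (−2.89 to −1.72), and in 9 of 11 for CDKN1A (0.70 to 0.83); the CCND2 STI571 call was kept in 8 of 11 (adjusted p 0.00048 to 1.0). Member probe sets called for STI571 were 0, not 1, with gene-specific probe sets alone (which leave out CCND2), when probe sets of a gene were averaged, without the intensity trend and with no replicate block; 1 rather than 3 were called between the lines with gene-specific probe sets alone. Over all probe sets, calls for STI571 were 348, against 141 with gene-specific probe sets, 116 with the mean of probe sets, and 0 both without the trend (948 at an unadjusted p under 0.05) and with no replicate block (119); the last counts the line difference as spread. Calls between the lines were 3146, against 1492, 2059, 1022 and, with treatment left out, 1933. The gene-specific and mean settings test fewer features; the cause of the other losses was not tested. Member probe sets changed at least 2-fold in SUP-B15 were 3, against 1 with a pseudocount at the median signal, 1 with the 75th percentile filter, 6 with no filter and 1 at 3-fold; in BV-173 they were 3, against 1, 1 and, at 3-fold, 0. A common median moved all BV-173 responses by −0.14, all SUP-B15 responses by 0.09 and the mean line differences by −0.10. Treated SUP-B15 and BV-173 had log2 medians at 0.01 and 0.02 from the mean of all arrays, and untreated ones at 0.10 and −0.12. Line differences between untreated arrays therefore moved down by more than the mean ones, and those between treated arrays hardly moved. The common median split the STI571 calls 109 higher and 148 lower (164 and 184 on the deposited scale). It split the line calls 1280 and 1680 (1634 and 1512). Leaving out an array would leave 1 pair and no test, so each line's own value stands in for it. Without stated detection calls, signals near 24.5 or below have no readable order.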
